A study of Mus musculus with 38 samples.

Results

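The effect of the APPPS1ΔE9 genotype on hippocampal RNA at 10 months of age was measured over both chows, with 12 APPPS1ΔE9 and 10 wild-type (WT) mice. These 22 libraries are all of the 10-month libraries among the 38 of the series, and they were chosen by age alone. APPPS1ΔE9 mice carry a transgene for a mutant amyloid precursor protein (APP) and for presenilin 1 without its exon 9, and they deposit amyloid plaques. All mice were on a C57BL/6 background and were fed either placebo chow or chow with anle138b, a small molecule that binds aggregating proteins, from 6 months of age on. On placebo chow there were 5 WT and 5 APPPS1ΔE9 mice, and on anle138b chow 5 WT and 7 APPPS1ΔE9 mice. Whole hippocampus was used, so fewer cells of a type and less RNA per cell cannot be told apart in any value below.

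Plaques draw microglia, the resident phagocytes of the brain, which then raise genes of lipid handling, lysosomes and immune receptors, and astrocytes around plaques become reactive. Neurons hold most of the RNA of the hippocampus, in the granule cells of the dentate gyrus, the pyramidal cells of CA1 to CA3 and scattered inhibitory interneurons. A change that is limited to a minority of cells appears in whole tissue as a small fold change. Larger groups are therefore needed to measure such changes, and the pooling of both chows served this purpose.

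Total counts of the 22 libraries lay between 15847985 and 29878957. WT libraries were sequenced in lanes 3 and 4 and APPPS1ΔE9 libraries in lanes 5 and 6, so that lane and genotype cannot be told apart in any comparison at 10 months. Expression of Ddx3y, Eif2s3y, Kdm5d and Uty, which lie on the Y chromosome, summed to at most 1.89 CPM (counts scaled to the same library size) in 6 of 10 WT libraries and in 1 of 12 APPPS1ΔE9 libraries. In these 7 libraries the X-linked RNA Xist was at 1231 to 1451 CPM, against at most 2.14 CPM in the other 15, although the study states that all mice were male. For this reason values are also given from a fit that takes the Y-linked level as a further covariate. The markers of hippocampal neurons were present in every library, among them Prox1 of dentate granule cells at 46.5 to 206 CPM and Fibcd1 of CA1 at 111 to 253 CPM. Anle138b-treated APPPS1ΔE9 replicate 5 stood apart in Ttr, a gene of the choroid plexus, with 4113 CPM against at most 242 CPM in the others, and placebo-treated WT replicate 1 in the pituitary hormone gene Prl, with 336 CPM against at most 15.2 CPM. App, to which reads of the transgene are also assigned, was at 1520 to 1811 CPM in WT and at 3237 to 4154 CPM in APPPS1ΔE9 libraries, in accordance with every genotype label. Lamr1-ps1, a pseudogene among the genes that collect transgene reads, was at 0 CPM in all 10 WT libraries and at 7.14 to 19.9 CPM in APPPS1ΔE9 libraries.

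Of 17668 genes tested, 275 passed a Benjamini-Hochberg adjusted p of 0.1 in edgeR's quasi-likelihood test with chow as a covariate (1.56% of the genes tested). The APPPS1ΔE9 mice had 252 genes higher (1.43%) and 23 genes lower (0.13%). Without adjustment, a p under 0.05 was reached by 1249 genes (7.07%). Without the genes that collect transgene reads, the largest rises were those of the microglial genes Cst7, Clec7a, Itgax, Ccl4, Ctse and Ccl3, with log2 fold changes from 2.92 to 6.22. Most other calls were of small changes. Less than 1.5-fold separated the genotypes in 142 of the 275 genes, which were 124 of the rising and 18 of the falling genes. Only 51 genes rose by at least 2-fold, and 0 genes fell by that much.

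Pooling brought in genes that neither chow showed alone. When the genotypes were compared within each chow, 80 genes passed in placebo-treated mice (0.453%) and 158 in anle138b-treated mice (0.894%), of which 4 (0.0226%) and 8 (0.0453%) were lower and 0.43% and 0.849% of the genes tested were higher. Of the 275 genes, 118 passed in neither of these comparisons, 100 of them rising and 18 falling. Their median absolute log2 fold change was 0.44, against 0.57 for all 275 genes. All 275 had the same sign in both chows, although this is in part a property of the choice, since the pooled estimate averages both. In the test of whether the genotype effect differed between the chows, 0 of 17668 genes passed with edgeR and 407 had an unadjusted p under 0.05 (2.3%). DESeq2 called 2 genes there, Prl and Pomc, both hormone genes of the pituitary.

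The 23 falling genes were led by transcripts that do not code for protein. Without Eif2s3x and Ddx3x, X-linked genes that were set aside with the other sex-linked genes, 21 remained, of which 13 coded for protein and 8 did not. Rab10os (chromosome 12 of GRCm38, 3235504 to 3250377) is an RNA antisense to Rab10, the gene of a small GTPase of vesicle transport. It was at 51.0 CPM in the lowest WT library, with a median of 54.3 and a highest value of 59.6 CPM, while APPPS1ΔE9 libraries lay between 38.4 and 50.8 CPM with a median of 45.2 CPM. All 12 APPPS1ΔE9 libraries were thus below all 10 WT libraries. The log2 fold change was -0.28 (SE 0.05, edgeR adjusted p = 0.00115). Whether the authors counted reads by strand is not given in the sources used here, so reads of Rab10 could be counted on it, but Rab10 itself differed by 0.01 on the log2 scale (edgeR adjusted p = 0.975).

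Gm45809, a short unconfirmed transcript within Nek1 on chromosome 8 (61050049 to 61053942), was the other gene with no overlap. Its lowest, median and highest values were 2.32, 2.84 and 3.84 CPM in WT and 1.66, 2.01 and 2.3 CPM in APPPS1ΔE9 libraries (log2 fold change -0.51, SE 0.09, edgeR adjusted p = 0.00171). Of all genes tested, 2 were lower in every APPPS1ΔE9 than in every WT library (0.0113%) and 71 were higher (0.402%), so these 2 transcripts are the whole of the first group. Nek1, a kinase gene on the same strand whose reads can overlap those of Gm45809, differed by -0.13 (edgeR adjusted p = 0.906). Gm37132 within Cd46, Gm43300 within Ptbp2 and 4633401B06Rik within Abcd3 are of the same kind and fell by 0.53, 0.30 and 0.68 on the log2 scale, whereas the log2 fold changes of their host genes were -0.19, -0.04 and -0.01 and did not pass. Gm43625, Gm11407 and Gm26614 are a pair of long noncoding RNAs and a pseudogene, all under 1 CPM in every library, with log2 fold changes of -0.82, -0.76 and -0.57.

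Among the falling protein-coding genes, Bbox1 encodes the last enzyme of carnitine synthesis. It lay between 2.92 and 4.36 CPM in WT libraries with a median of 3.85 CPM, and between 1.85 and 3.90 CPM in APPPS1ΔE9 libraries with a median of 2.58 CPM (log2 fold change -0.50, SE 0.11, edgeR adjusted p = 0.0208). The groups overlapped, with 9 of 12 APPPS1ΔE9 libraries below the lowest WT library. Ulk4, a member of the ULK kinase family, ranged from 7.06 to 11.2 CPM in WT (median 8.96) and from 4.79 to 10.0 CPM in APPPS1ΔE9 libraries (median 6.34). Its log2 fold change was -0.51 (SE 0.12, edgeR adjusted p = 0.033). Tpd52l1, a tumor protein D52 family member, fell little but evenly, from a WT range of 23.9 to 28.2 CPM to a range of 19.5 to 25.2 CPM (log2 fold change -0.18, SE 0.04, edgeR adjusted p = 0.049). Hsf5, of the heat shock factor family, and Meioc, a meiosis gene, fell by 0.68 and 0.64 on the log2 scale and were at most 1.49 CPM in any library.

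Arpp21 and Tnik, which are known from neurons, were chosen by their p and not from a neuronal list, and were at the weak end of the calls. Arpp21, a neuronal phosphoprotein gene regulated by cAMP that hosts a microRNA of the miR-128 family, was at 150.0 to 260.0 CPM in WT (median 185) and at 121 to 182 CPM in APPPS1ΔE9 libraries (median 145). All 12 APPPS1ΔE9 libraries were below the WT median and 7 were below the lowest WT library (log2 fold change -0.40, SE 0.11, edgeR adjusted p = 0.0922). That median lay in a gap of the WT values. Placebo-treated WT replicates 2, 3 and 5 and anle138b-treated WT replicates 3 and 5 were at 150 to 162 CPM, within the APPPS1ΔE9 range. The other WT libraries were at 208 to 260 CPM. Tnik, a kinase of the postsynaptic density, was at 343 to 374 CPM in WT (median 354) and at 282 to 373 CPM in APPPS1ΔE9 libraries (median 311). The log2 fold change of -0.16 was the smallest of the named falling genes (SE 0.04, edgeR adjusted p = 0.09). Hdac9, a class IIa histone deacetylase, fell by 0.27, Sntg2, a syntrophin, by 0.34, and Pthlh, which encodes a parathyroid hormone-related peptide, by 0.43 on the log2 scale. The calls of Arpp21, Hdac9 and Tnik were near the threshold. These calls and that of Pthlh were lost in most fits that left out a library. With each library left out in turn Arpp21 passed in 8 of 22 fits, Hdac9 in 6 and Tnik in 3, while Sntg2 passed in 17 and Pthlh in 10. Slco4a1, an organic anion transporter, and Rab42, a small GTPase, fell by 0.47 and 0.48. They passed in 15 and 10 of the 22 fits. With the Y-linked covariate neither passed (edgeR adjusted p = 0.269 and 0.232).

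**Figure D1:**
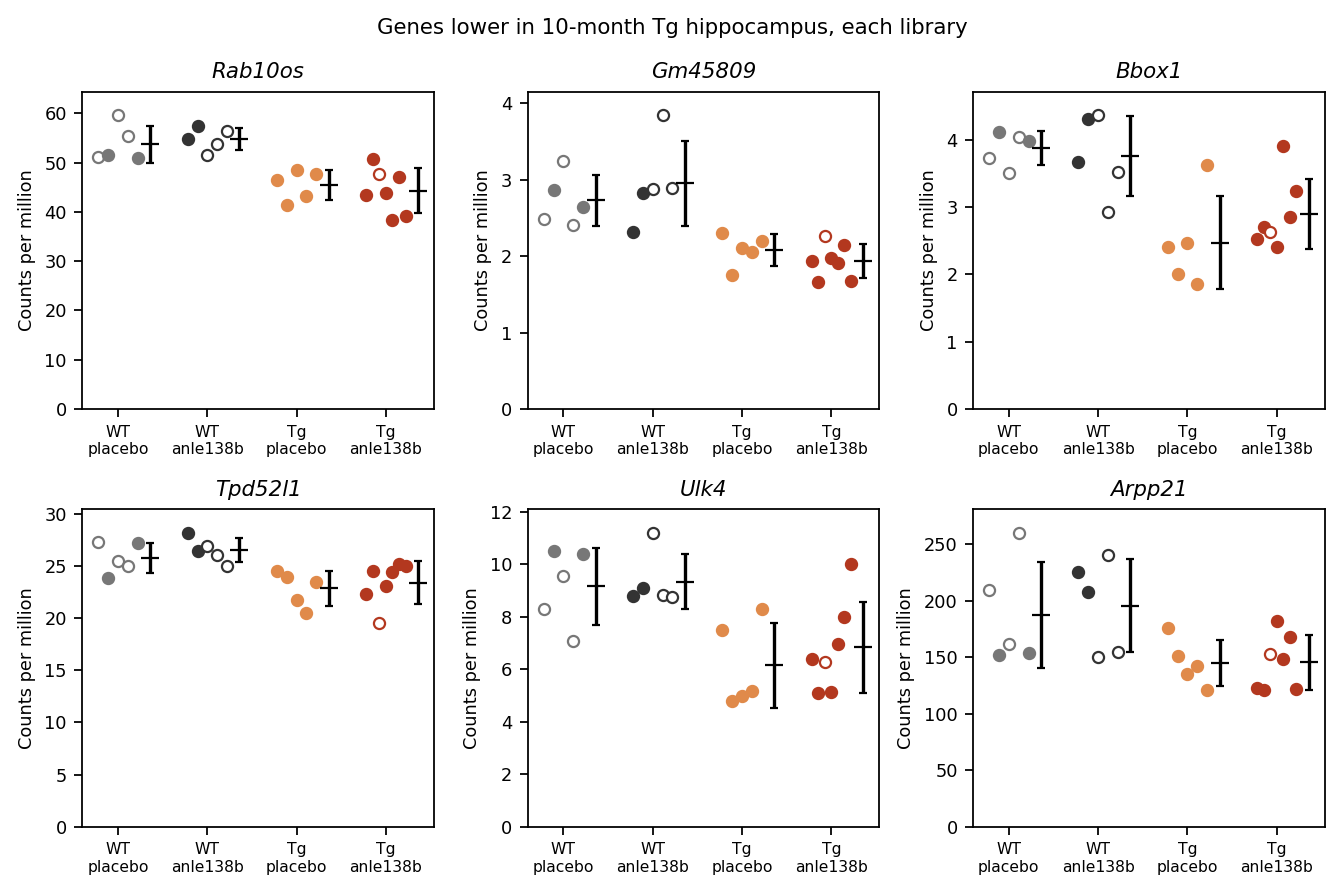
CPM (vertical axes, from 0) of 6 falling genes in each of the 22 libraries, with the mean and SD of each group beside the points; open circles are the 7 libraries without Y-linked expression. The 12 APPPS1ΔE9 (Tg) libraries are below all WT libraries for Rab10os and Gm45809 and overlap them for Bbox1, Tpd52l1, Ulk4 and Arpp21.

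Most of the falling genes did not pass once the Y-linked level was taken into account, and the part of sex-linked differences in them was not tested further. With the Y-linked covariate 21 genes were lower, and 7 of them were among the 23, namely Rab10os, Gm45809, Bbox1, Hsf5, Ulk4, Tpd52l1 and Tnik. The other 14 were new calls. Arpp21 was then at -0.36 (edgeR adjusted p = 0.37) and Hdac9 at -0.26 (edgeR adjusted p = 0.29). All 21 falling genes without the sex-linked genes kept their sign, and in the 15 libraries with Y-linked expression they kept it as well, where 0 of the 21 passed with edgeR and 961 of all genes had an unadjusted p under 0.05. Of these 15 libraries 4 were WT, with 2 on each chow, and 11 were APPPS1ΔE9, so small changes are less likely to pass there. The 15 libraries are among those by which the genes were chosen, so a kept sign is in part a property of the choice. Of the 248 rising genes without the transgene-read genes, 213 still passed with the covariate and 126 in the 15 libraries.

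**Figure D2:**
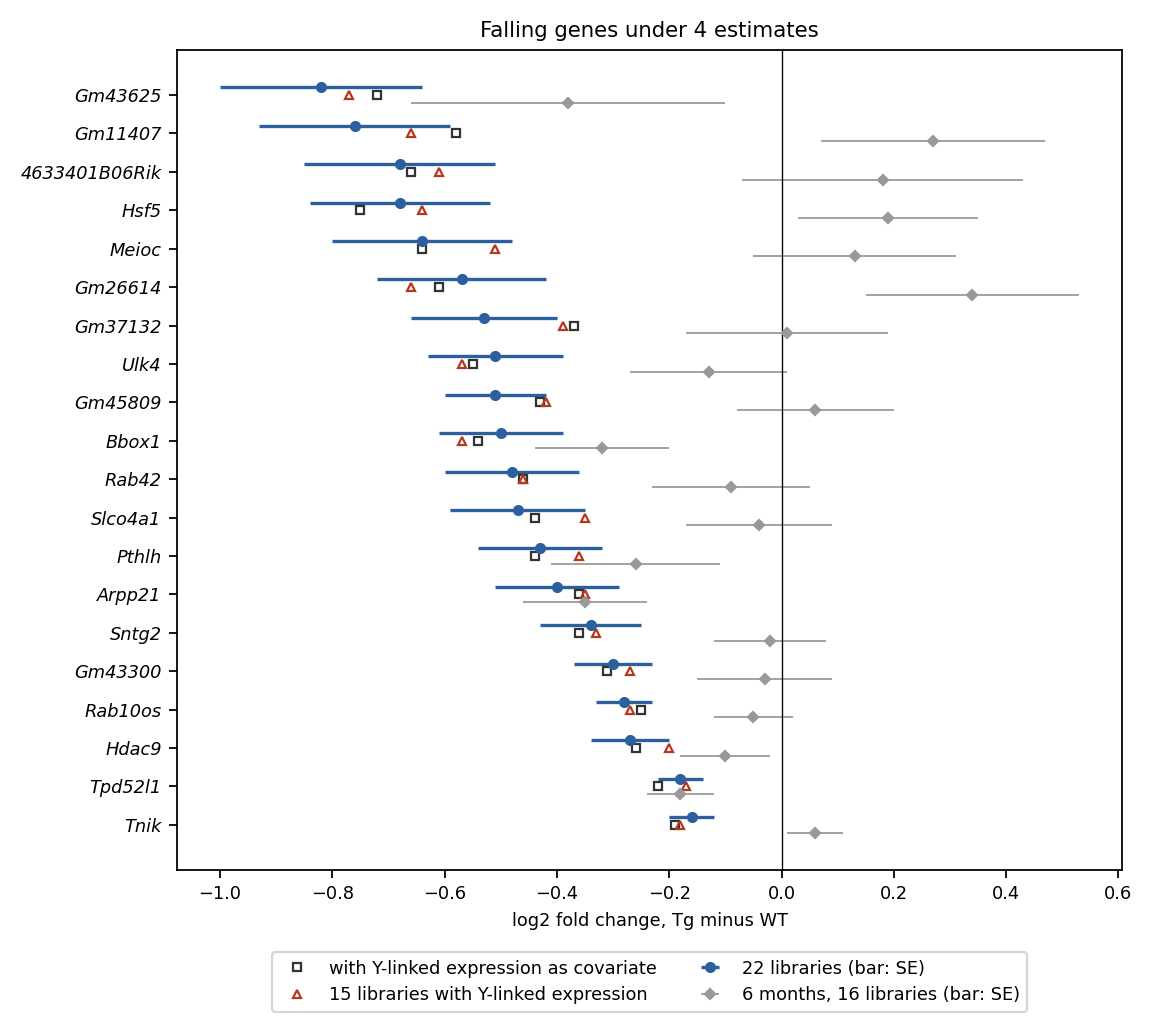
Log2 fold change (APPPS1ΔE9 minus WT, horizontal axis) of the 20 named falling genes with 22 libraries (circles, SE), with the Y-linked covariate (squares), in the 15 libraries with Y-linked expression (triangles) and at 6 months in 16 libraries (diamonds, SE). The first 3 estimates are below 0 for every gene, and those at 6 months lie on both sides of 0.

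Few neuronal-list genes were called, as was true of all genes. Of 305 tested genes in 12 lists of hippocampal cell types, receptors, synapses, channels, immediate early genes, neurotrophins and the cytoskeleton, 2 passed as higher and 0 as lower (0.656% called in all, against 1.43% higher and 0.13% lower of all genes tested). At that background a count of 0 lower is no result about neuronal genes, and limma-voom called 2 of them lower, Cort and Kcna5. Their median log2 fold change was -0.02 against -0.004 for all genes tested, and 172 of 305 were below 0 (56.4%, against 52.1% of all genes). For 248 of them (81.3%) the 95% interval of the log2 fold change, taken as 1.96 standard errors to each side, lay within 1.5-fold in both directions, as it did for 84.5% of all genes tested. Changes of less than 1.5-fold were also those of the falling neuronal genes Arpp21 and Tnik, neither of which was in a list.

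**Figure D3:**
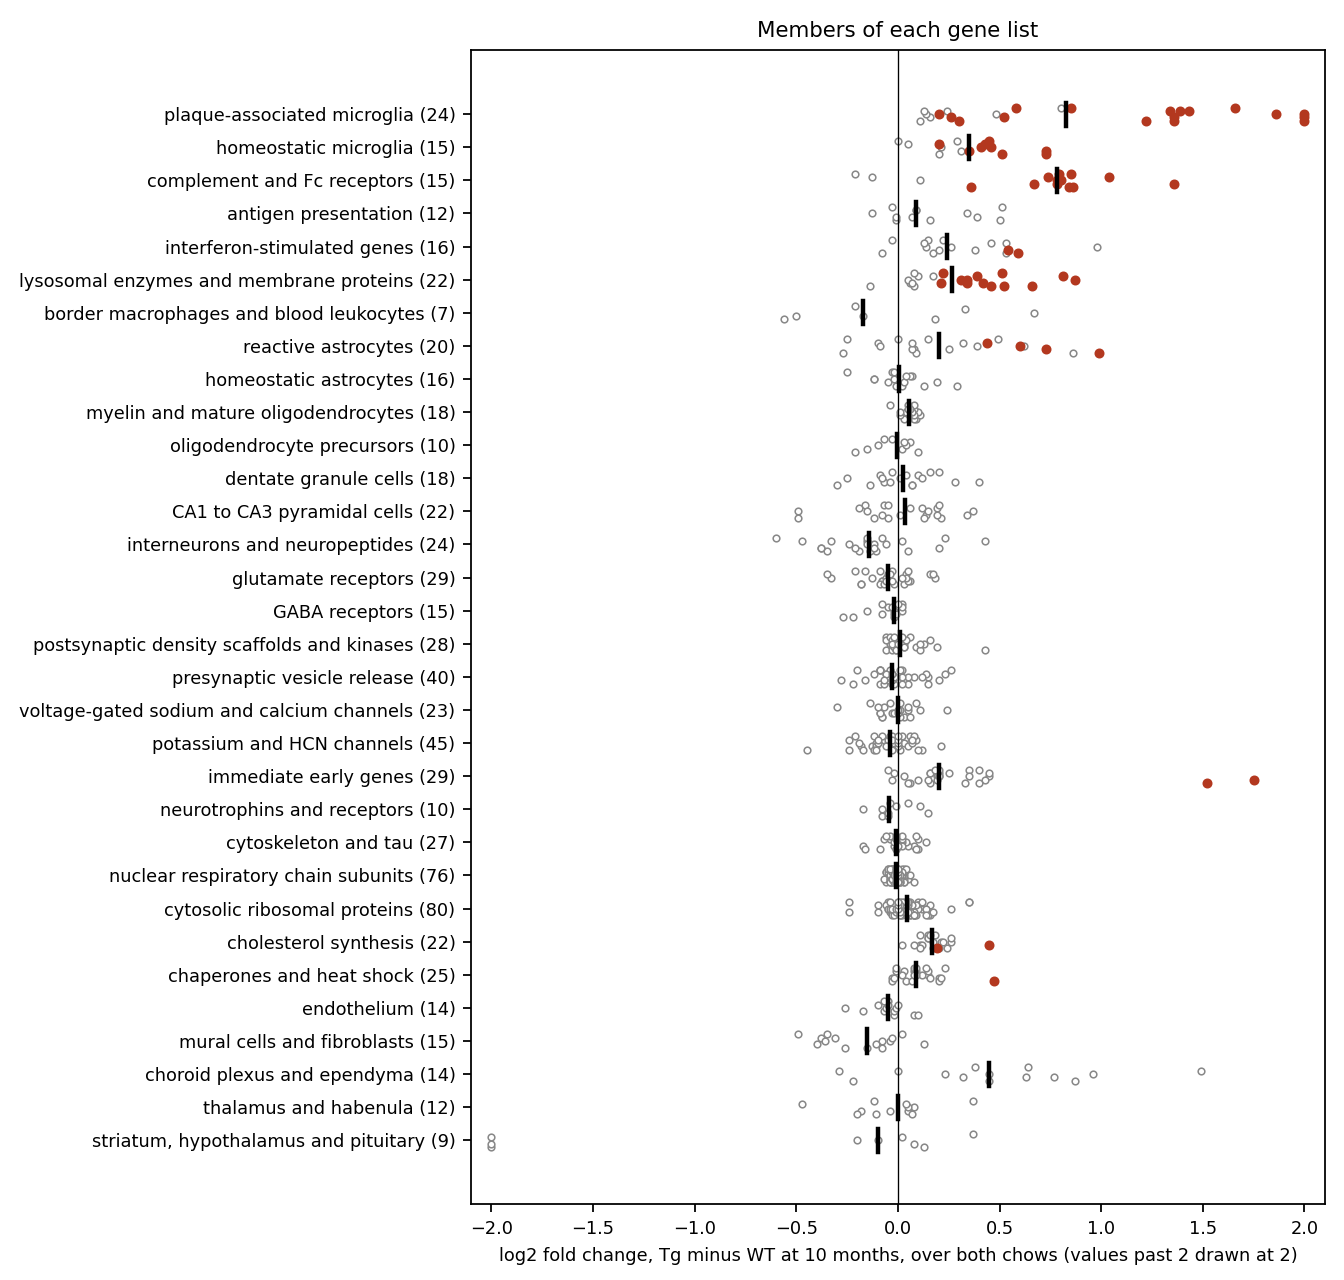
Log2 fold change (APPPS1ΔE9 minus WT over both chows, horizontal axis) of each tested member of the gene lists, with the number tested in parentheses; filled points passed the adjusted p of 0.1 and the vertical bar is the list's median, with values past 2 in either direction drawn at 2. Filled points are frequent in the microglial, complement and lysosomal lists and are absent from the neuronal lists but for Fos and Egr2.

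The list with the lowest median of the neuronal ones was that of interneurons and neuropeptides, at -0.14. Of its 24 tested genes 19 were below 0 (79.2%, against 52.1% of all genes tested). Of these 24 genes 0 passed the threshold, as did 1.56% of all genes tested. Pvalb, the parvalbumin gene of fast-spiking interneurons, was at 28.3 ± 3.25 CPM (SD, n = 10) in WT and 24.7 ± 3.52 CPM (SD, n = 12) in APPPS1ΔE9 mice (log2 fold change -0.19, edgeR adjusted p = 0.552). Sst, the gene of the neuropeptide somatostatin, was at 123 ± 23.8 and 95.3 ± 34.5 CPM (log2 fold change -0.38, edgeR adjusted p = 0.662). Its log2 fold change was -0.01 in placebo-treated and -0.68 in anle138b-treated mice, a difference that did not pass the test of the interaction (edgeR adjusted p = 0.989). Gad1, which makes the enzyme of GABA synthesis, was at 355 ± 43.3 and 322 ± 35.7 CPM (log2 fold change -0.14, edgeR adjusted p = 0.732). The median of this list was -0.00 in placebo-treated and -0.25 in anle138b-treated mice, and it lay between -0.19 and -0.09 under all alternatives.

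Glutamate receptors had a median of -0.05 with 19 of 29 below 0 (65.5%, against 52.1% of all genes tested). The one closest to the threshold, Grm3, a metabotropic receptor, had a median of 36.5 CPM in WT and 34.4 CPM in APPPS1ΔE9 libraries (log2 fold change -0.18, SE 0.05, edgeR adjusted p = 0.151). DESeq2 called it, and with the Y-linked covariate its adjusted p was 0.545. Potassium and HCN channels had 30 of 45 genes below 0 and a median of -0.04, and GABA receptors 12 of 15 and a median of -0.02. Presynaptic vesicle release genes had a median of -0.03 with 26 of 40 below 0, and Rims1, a scaffold of the release site, was the member closest to the threshold at 0.15 (edgeR adjusted p = 0.244). For postsynaptic scaffolds and kinases the median was 0.01, and it was 0.00 for voltage-gated sodium and calcium channels and -0.01 for the cytoskeleton with tau. The lists of dentate granule cells and of CA1 to CA3 pyramidal cells had medians of 0.03 and 0.04, and 0 of 18 and 0 of 22 genes passed. With 1.56% of all genes called, these counts are near the background. C1ql3, a synaptic organizer of the dentate gyrus, was at -0.14 (edgeR adjusted p = 0.463), and Nptx1, a pentraxin of excitatory synapses, at 0.21 (edgeR adjusted p = 0.677).

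Immediate early genes, which neurons transcribe within minutes of activity, were the neuronal list with called members. Of 29 genes, 3 were below 0 (10.3%, against 52.1% of all genes tested), the median was 0.20 and 2 passed (6.9%, against 1.56%). Fos was at 1.64 to 4.35 CPM in WT (median 3.44) and at 2.41 to 28.9 CPM in APPPS1ΔE9 libraries (median 7.09). Egr2, a zinc finger transcription factor, was at 0.17 to 1.41 CPM (median 0.752) and at 0.804 to 6.91 CPM (median 1.81). The groups overlapped in both genes, and the 6 APPPS1ΔE9 libraries highest in Egr2 were placebo-treated replicates 2, 3 and 4 and anle138b-treated replicates 3, 4 and 5, which were also the 6 highest in Fos. The log2 fold changes were 1.52 for Fos (SE 0.38, edgeR adjusted p = 0.0522) and 1.75 for Egr2 (SE 0.46, edgeR adjusted p = 0.0739). With the Y-linked covariate the adjusted p was 0.297 for Fos and 0.218 for Egr2. Leaving out placebo-treated WT replicate 3 or 4 ended the call of Fos, and that of Egr2 held in 11 of 22 such fits. Junb and Npas4, a factor induced by synaptic activity, were both at 0.45 and did not pass.

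Rising genes under 1.5-fold were more numerous, and 100 of the 124 were in none of the immune lists. Among the 12 with the smallest p were Itgb5, Cd53, Arpc1b, Dnase2a, Irf5, Nckap1l, Lcp1, mt-Tp, Vsir, Il10ra and Apbb1ip, most of them known from leukocytes. Itgb5 (chromosome 16, 33829665 to 33949338), an integrin that binds vitronectin, was at 36.4 to 44.9 CPM in WT (median 39.9) and at 47.1 to 72.5 CPM in APPPS1ΔE9 libraries (median 53.2). These did not overlap (log2 fold change 0.43, SE 0.06, edgeR adjusted p = 0.0001). Cd53, a tetraspanin of leukocytes, was at most 7.91 CPM in WT (median 7.02) and at least 8.27 CPM in APPPS1ΔE9 libraries (median 10.3), again without overlap (log2 fold change 0.55). Arpc1b and Lcp1, which encode proteins that assemble and bundle actin, rose by 0.46 and 0.47 on the log2 scale, and Dnase2a, the lysosomal nuclease for DNA, by 0.43. The transcription factor gene Irf5 rose by 0.52. mt-Tp, a mitochondrial transfer RNA, rose by 0.48 from a median of 29.7 to 40.1 CPM.

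Many of the small rises were of lysosomal genes. Of 22 genes of lysosomal enzymes and membrane proteins, 13 rose (59.1%, against 1.43% of all genes tested), 0 fell and the median log2 fold change was 0.27. Hexa (chromosome 9, 59539540 to 59565109), a subunit of the enzyme that degrades gangliosides, was at 42.7 to 49.8 CPM in WT (median 46.2) and at 58.8 to 81.4 CPM in APPPS1ΔE9 libraries (median 65.0). The log2 fold change was 0.52 (SE 0.04, edgeR adjusted p = 9.49e-08). Grn (chromosome 11, 102430315 to 102437048), which encodes progranulin, rose from 57.9 ± 2.56 CPM (SD, n = 10) to 77.4 ± 5.48 CPM (SD, n = 12), and Npc2, a cholesterol carrier of the lysosome, from 49.4 ± 3.57 to 64.8 ± 4.68 CPM. In each of these 3 genes all 12 APPPS1ΔE9 libraries exceeded all 10 WT libraries. Gusb (log2 fold change 0.51), Man2b1 (0.34), Ctsl (0.34), Lgmn (0.22) and Ctsa (0.21) also rose, all of them hydrolases. Ctsa was near the threshold (edgeR adjusted p = 0.0681, and 0.181 with the Y-linked covariate). Ctsb from the list of plaque-associated microglia rose by 0.20, from 527 ± 18.8 to 606 ± 32.2 CPM.

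**Figure D4:**
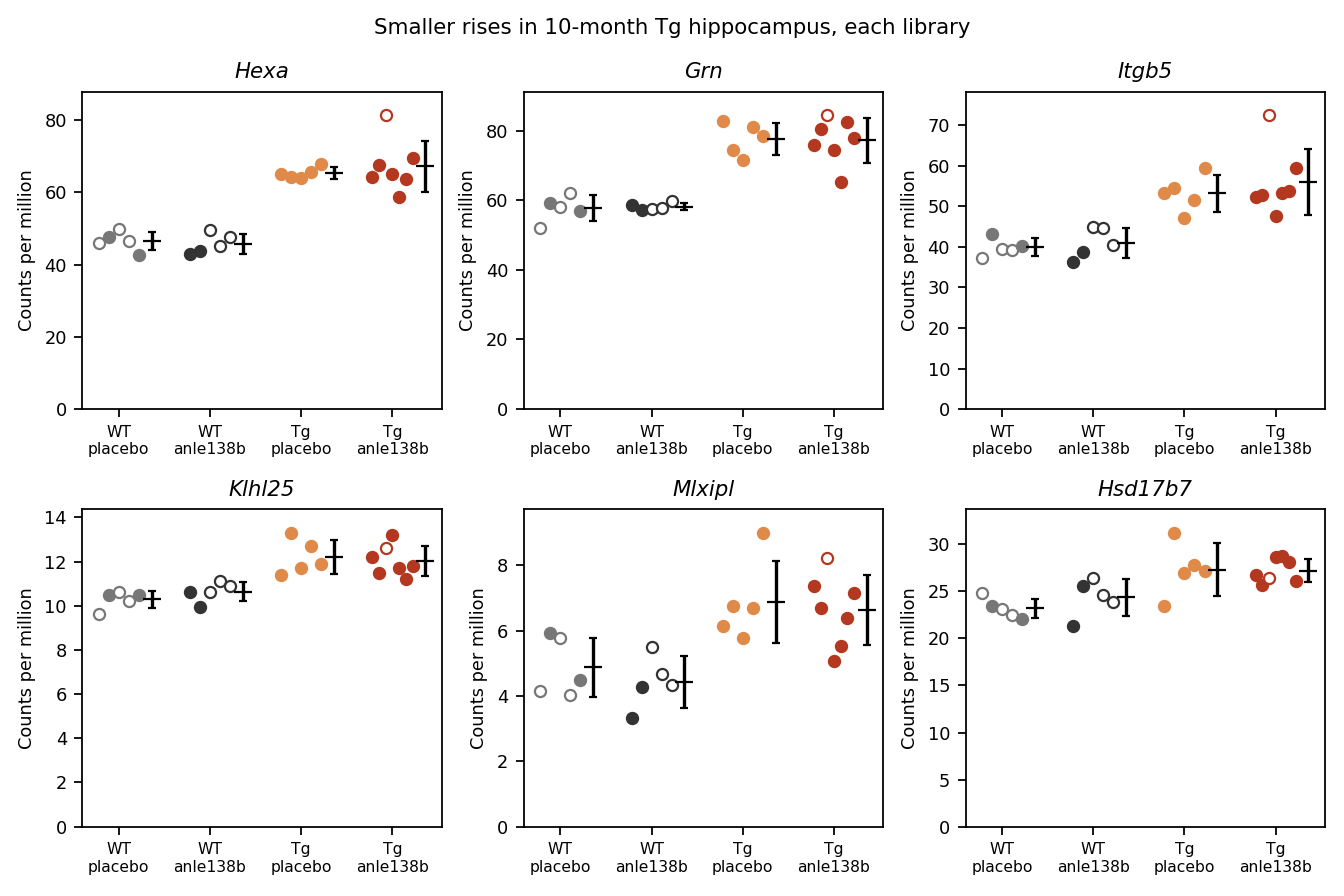
CPM (vertical axes, from 0) of 6 genes with smaller rises in each of the 22 libraries, with the mean and SD of each group beside the points; open circles are the 7 libraries without Y-linked expression. The APPPS1ΔE9 (Tg) libraries are above all WT libraries for Hexa, Grn, Itgb5 and Klhl25 and overlap them for Mlxipl and Hsd17b7.

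Promoter sequences are shown for 4 of these small rises, since the letters that known regulators of lysosomal and myeloid genes bind can be searched in them. TFEB, the factor that controls lysosomal genes, binds the letters TCACGTGA or close variants such as TCACATGA, and PU.1, the factor of myeloid cells encoded by Spi1, binds GAGGAAGT. Spi1 itself rose by 0.54, from 2.75 to 3.98 CPM (edgeR adjusted p = 0.0102). In the 250 bases before the start of RefSeq transcripts (GRCm38.p6), searched on both strands, GAGGAAGT was in 5.79% of the 242 promoters of the rising genes, 199 of which matched, against 2.20% of the promoters of all genes tested and 2.44% of all 32851 promoters. TCACGTGA was in 2.07% of the rising, 1.31% of the tested and 0.785% of all promoters, and TCACATGA in 2.07%, 0.568% and 0.846%. Of the 13 rising lysosomal genes 12 matched, with 14 promoters. TCACGTGA was in 1 of these 14 (7.14%), that of Ctsa, and TCACATGA in 1 (7.14%), that of Grn. Ctsd, a rising protease of lysosomes that is not in this list, had TCACGTGA 99 bases before its start. Most lysosomal promoters of the list thus lacked these letters. With 1 match each, the shares are too uncertain to set against those of the tested promoters. Other letters that were searched were in 0 of the 242 promoters of the rising genes. Of the 4 genes shown, Ctsa and Ctsc were near the threshold (edgeR adjusted p = 0.0681 and 0.0731). With each library left out in turn they passed in 13 and 10 of 22 fits. With the Y-linked covariate neither passed (edgeR adjusted p = 0.181 and 0.108). Capitals mark the match on either strand in the sequences of Ctsa and Grn (TFEB letters) and of Inpp5d, an inositol phosphatase of leukocytes that rose by 0.39, and Ctsc, a cathepsin that rose by 0.31 (PU.1 letters).
Ctsa, chr2:164833523-164833772, strand +: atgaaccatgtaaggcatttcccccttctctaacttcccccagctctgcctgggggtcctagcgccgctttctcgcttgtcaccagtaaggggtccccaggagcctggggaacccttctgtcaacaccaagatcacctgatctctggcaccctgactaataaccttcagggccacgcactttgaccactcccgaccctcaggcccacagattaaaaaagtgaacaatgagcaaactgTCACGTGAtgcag
Grn, chr11:102430257-102430506, strand +: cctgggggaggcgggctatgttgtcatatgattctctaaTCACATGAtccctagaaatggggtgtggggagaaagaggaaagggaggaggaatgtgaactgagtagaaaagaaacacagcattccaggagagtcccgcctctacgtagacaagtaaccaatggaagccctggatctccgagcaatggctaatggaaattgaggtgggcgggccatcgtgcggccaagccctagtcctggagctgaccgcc
Inpp5d, chr1:87620062-87620311, strand +: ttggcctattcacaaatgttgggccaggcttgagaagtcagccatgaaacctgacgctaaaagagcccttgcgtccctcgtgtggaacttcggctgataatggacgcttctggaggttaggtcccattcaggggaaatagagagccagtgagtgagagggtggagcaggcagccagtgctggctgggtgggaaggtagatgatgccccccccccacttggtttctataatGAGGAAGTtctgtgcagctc
Ctsc, chr7:88277835-88278084, strand +: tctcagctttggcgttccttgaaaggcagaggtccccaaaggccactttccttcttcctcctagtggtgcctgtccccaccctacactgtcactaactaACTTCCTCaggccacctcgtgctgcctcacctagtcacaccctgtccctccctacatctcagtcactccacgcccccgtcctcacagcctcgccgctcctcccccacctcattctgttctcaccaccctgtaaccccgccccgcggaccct
The match lies 13 bases before the start in Ctsa, 20 in Inpp5d, 151 in Ctsc and 211 in Grn, and a match describes the letters of the window only.

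Small rises also occurred in genes that are not known from microglia, and the following were chosen after their values were seen. The values of 2 genes that this rule names are not reported here. Klhl25 (chromosome 7, 75848310 to 75874131), an adaptor of a ubiquitin ligase, was at 9.62 to 11.1 CPM in WT and at 11.2 to 13.3 CPM in APPPS1ΔE9 libraries, with medians of 10.6 and 11.8 CPM. Although the log2 fold change was only 0.21 (SE 0.04, edgeR adjusted p = 0.00405), the groups did not overlap. Mlxipl encodes ChREBP, a transcription factor that responds to glucose, and was raised from 4.65 ± 0.832 to 6.73 ± 1.11 CPM (a log2 fold change of 0.54, edgeR adjusted p = 0.00472). Crcp, a subunit of RNA polymerase III, rose by 0.15 from 26.7 ± 0.792 to 29.7 ± 1.53 CPM, and 11 of 12 APPPS1ΔE9 libraries were above all WT libraries. Genes of the endoplasmic reticulum were Sdf2l1 (log2 fold change 0.47) and Edem1 (0.17), of protein quality control, Tmed3 (0.14), of cargo transport, and Rrbp1 (0.15), of ribosome binding. With the Y-linked covariate all of these passed but Tmed3, whose adjusted p was then 0.103. In the 15 libraries with Y-linked expression only Rrbp1 passed, and with each library left out in turn it passed in 17 of 22 fits. At 6 months, however, Rrbp1 was at -0.13 (edgeR unadjusted p = 0.0278). Sdf2l1, Edem1 and Tmed3 were then at -0.16, 0.02 and -0.11, and Klhl25, Mlxipl and Crcp at -0.03, 0.16 and -0.02.

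Of 22 cholesterol genes 0 were below 0 (52.1% of all genes tested were), the median was 0.17 and 2 rose (9.09%, against 1.43% of all genes tested). Hsd17b7, an enzyme of the late pathway, was 1 of them and rose by 0.19 from 23.8 ± 1.59 to 27.2 ± 1.91 CPM (edgeR adjusted p = 0.0262), with 9 of 12 APPPS1ΔE9 libraries above all WT libraries. Srebf2, the transcription factor of the pathway, was at 0.21 and did not pass (edgeR adjusted p = 0.115). The list's median was 0.34 in placebo-treated and 0.05 in anle138b-treated mice, and this difference was not tested for the list.

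Reactive astrocyte genes rose in 4 of 20 cases (20%, against 1.43% of all genes tested) and 0 fell (0.13% of all genes tested). Their median was 0.20, which was 0.42 with the Y-linked covariate and 0.42 in the 15 libraries with Y-linked expression. Gfap, the intermediate filament of astrocytes, rose from 463 ± 171 to 923 ± 260 CPM (a log2 fold change of 0.99, edgeR adjusted p = 0.00358). Aspg, Osmr and Ggta1 rose by 0.73, 0.60 and 0.44. Ggta1 was near the threshold (edgeR adjusted p = 0.0982, and 0.0119 with the Y-linked covariate). With each library left out in turn Ggta1 passed in 8 of 22 fits. Chil1, which astrocytes secrete and which was chosen after its value was seen, rose by 0.32 from a median of 8.27 to 10.8 CPM (edgeR adjusted p = 0.00482). Of the homeostatic astrocyte genes 0 of 16 passed, and Aqp4, the water channel, was at 0.29 (adjusted p = 0.198, edgeR; with the Y-linked covariate 0.0205). Interferon-stimulated genes were at a median of 0.24 with 2 of 16 called, Bst2 and Trim30a, and antigen presentation genes at 0.09 with 0 of 12 called. With the Y-linked covariate these medians were 0.43 and 0.37, and in the 15 libraries with Y-linked expression 0.39 and 0.45. Over all alternatives 0 to 7 and 0 to 2 members were called, and with each library left out in turn Bst2 passed in 7 and Trim30a in 4 of 22 fits.

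Lists of myelin, respiratory chain, ribosomal and vascular genes had 0 members called, which at 1.56% of all genes called is near the background. Their medians were 0.05 over 18 myelin genes, -0.01 over 76 respiratory chain subunits, 0.05 over 80 ribosomal proteins, -0.05 over 14 endothelial genes and -0.15 over 15 genes of mural cells and fibroblasts, of which 13 were below 0. The range of the respiratory chain genes was narrow, from -0.07 to 0.08. The 14 choroid plexus and ependymal genes ranged from -0.29 to 1.49, with a median of 0.45 and 0 called. This median was -0.48 in placebo-treated and 1.02 in anle138b-treated mice and was -0.29 without anle138b-treated APPPS1ΔE9 replicate 5, and it was also below 0 with limma-voom. The summed level was 183 to 6254 CPM in APPPS1ΔE9 and 188 to 709 CPM in WT libraries. The highest of these sums contains the 4113 CPM of Ttr in anle138b-treated APPPS1ΔE9 replicate 5. Of border macrophage and blood leukocyte genes 0 of 7 tested passed, and the summed level of the list was 6.70 to 15.7 CPM in APPPS1ΔE9 and 7.32 to 22.3 CPM in WT libraries.

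The 16 libraries of 6-month mice, with 8 APPPS1ΔE9 and 8 WT mice, gave a measurement of the same genes in other mice. Their values came from a fit of all 38 libraries, so the filter and the estimates of spread were shared with the 10-month libraries. At 6 months, 15 of 18232 genes passed (0.0823%), 10 higher (0.0548%) and 5 lower (0.0274%). Y-linked expression was near 0 in 5 of 8 WT and 0 of 8 APPPS1ΔE9 libraries of this age, so the imbalance ran in the same direction. Lane was less closely tied to genotype than at 10 months, since 2 of the WT libraries shared lane 5 with the 4 placebo-treated APPPS1ΔE9 libraries and the other WT libraries were in lane 4. Of the 248 rising genes 213 were above 0 at 6 months (85.9%), where 50.2% of all genes had the same sign at both ages, and 85 also had an unadjusted p under 0.05 there (3.17% of all genes were higher at that p). Their median log2 fold change was 0.17 against 0.58 at 10 months. Of the 21 falling genes 13 were below 0 (61.9%), with a median of -0.04 against -0.48. Both sets were chosen by their 10-month values, so their 10-month medians are farther from 0 in part by choice. Bbox1, Tpd52l1, Arpp21 and Arhgap15, a Rac GTPase-activating protein, were lower at 6 months with an unadjusted p under 0.05 (4.93% of all genes), with log2 fold changes of -0.32, -0.18, -0.35 and -0.21, and 0 of the 21 passed the adjusted p there with edgeR.

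The difference between the ages was tested in the same fit of all 38 libraries. It passed in 27 genes (0.148%), all with a larger effect at 10 months, and 24 of them were among the 275. Lane and genotype cannot be told apart at 10 months, and this difference carries the same limit. The genes with the smallest p were Ctsd, Hexa and Tyrobp. Ctsd, the aspartic protease of lysosomes, had a log2 fold change of 0.85 at 10 and 0.10 at 6 months (difference 0.75, edgeR adjusted p = 0.000298). Hexa differed by 0.39 (edgeR adjusted p = 0.00586) and Tyrobp, the signaling adaptor of Trem2, by 0.97 (edgeR adjusted p = 0.00785). The smaller risers Npc2, Itgb5, Gusb, Cd53 and Dnase2a passed as well. Of the 21 falling genes 0 passed this test with edgeR, while 11 had an unadjusted p under 0.05 (2.59% of all genes differed downward at that p). The falling and rising genes were chosen by their 10-month values, which enter this difference. An excess over all genes is therefore in part a property of the choice. The count of 27 genes depended on single libraries. It was 8 without placebo-treated APPPS1ΔE9 replicate 5 or anle138b-treated WT replicate 2 of 10 months, and 44 without placebo-treated APPPS1ΔE9 replicate 4 of 6 months.

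**Figure D5:**
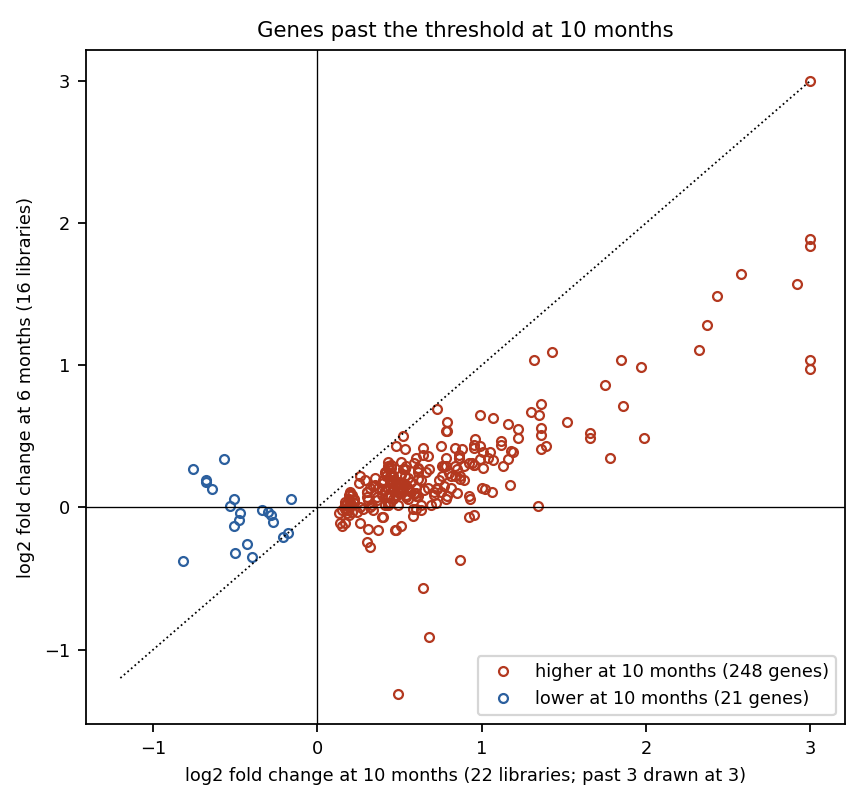
Log2 fold change (APPPS1ΔE9 minus WT) at 10 months (horizontal axis, 22 libraries) against that at 6 months (vertical axis, 16 libraries) for the 248 rising and 21 falling genes without sex-linked and transgene-read genes; the dotted line marks equal values and values past 3 are drawn at 3. Most rising genes lie between 0 and the dotted line, and 13 of the 21 falling genes lie below 0 at 6 months.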

How the data were processed

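RNA was isolated from whole hippocampus with TRIzol, and TruSeq libraries were sequenced. Reads had been aligned by the authors to mm10 (STAR) and assigned to genes (HTSeq), and the deposited values are raw read counts of 48709 genes for each mouse, used without change. Whether counting used strand is not given in the sources used here. Groups came from the sample titles, and 4 WT libraries of 6 months whose genotype label names the transgene were used as WT. The members, gene lists and tests were chosen with earlier results of these data known.

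Genes passing filterByExpr of edgeR 4.0.16 (minimum count 10, total 15) were scaled by TMM and entered edgeR's quasi-likelihood test (robust glmQLFit) with a term for chow, in R 4.3.3. Adjusted p-values under 0.1 were called, and SE was derived from the log2 fold change and F. CPM are TMM-scaled. GENCODE M21 (GRCm38) gave the symbol and position of 48349 genes. Named genes were the transgene-read genes, the 6 largest rises, the 12 rises under 1.5-fold of smallest p outside the immune lists, the 20 falls of smallest p, up to 4 members of smallest p in each list and the top 3 of the interaction and of the age difference, while Spi1, Inpp5d, Arhgap15, Pcdhga4, host genes, further list members and the genes so described in the text were chosen after their values were seen. The values of 2 genes that this rule names are not reported here. Gm6180, Gm13341 and Gm25219 had the smallest p in the interaction and none passed.

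Replicates were separate mice, and within-group pairs differed by more than sampling noise (chi-square over its degrees of freedom 3.17 to 65.3 in 51 pairs). Total counts per library set the precision of low genes. Alternatives were DESeq2 1.42.0, limma 3.58.1 voom with quality weights, RLE size factors, no filter, an adjusted p under 0.05, the Y-linked level as covariate, libraries with Y-linked expression only, offsets for GC content and gene length, the replicate number as a block, no chow covariate and each library left out. The edgeR, DESeq2 and limma-voom fits of the comparison over both chows were tested on simulated data, and the other fits were not.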

Additional observations from a re-analysis of the deposited data

Results flagged for a closer look

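The genotype effect differed between 10 and 6 months in 27 genes, by the test of the difference itself. The 3 with the smallest p were Ctsd, with a difference of 0.75 on the log2 scale, Hexa with 0.39 and Tyrobp with 0.97, each larger at 10 months.

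In 168 sets of values, of the named falling, rising and transgene-read genes in each of the 4 groups of 10 months, 7 had a library far from the others of its group, where chance gives about 1 in 20. App was at 1767 CPM in placebo-treated WT replicate 4 against 1597 to 1630 CPM in the others of its group. Ccl3 was at 0.627 CPM in placebo-treated WT replicate 2 against 0.21 to 0.31 CPM. Gm43625 was at 0.64 CPM in anle138b-treated WT replicate 4 against 0.37 to 0.447 CPM, Ulk4 at 11.2 CPM in replicate 3 of the same group against 8.75 to 9.09 CPM, and Pthlh at 1.67 CPM in replicate 1 against 1.23 to 1.32 CPM. Among anle138b-treated APPPS1ΔE9 mice, Sntg2 was at 3.06 CPM in replicate 2 against 1.98 to 2.44 CPM and Hdac9 at 52.4 CPM in replicate 4 against 37.7 to 41.8 CPM. The cause was not tested.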

How the results depend on the processing

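All 57 named genes past the threshold kept their direction in all 1824 values computed under the alternatives, and 286 of these values no longer passed. The kept direction is in part a property of the choice, since the alternatives use the same libraries by which the genes were chosen. The number of genes past the threshold, 275, was 141 in the 15 libraries with Y-linked expression, and the 252 rising genes were 139 there. The 23 falling genes were 10 at an adjusted p under 0.05, 10 without a filter, 2 in the libraries with Y-linked expression (Xist and Pcdhga4) and 60 with limma-voom. Placebo-treated mice gave 80 genes, and 122 with DESeq2, 15 in libraries with Y-linked expression and 131 with limma-voom. Anle138b-treated mice gave 158, and 260 with limma-voom. The interaction gave 0, and 2 with DESeq2. The 27 genes that differed between ages were 9 at an adjusted p under 0.05, 54 with DESeq2, 12 without a filter, 4 in libraries with Y-linked expression (Tent5c, Ctsd, St14 and Hexa), 16 with GC and length offsets and 56 with limma-voom. The cause was not tested, apart from the fewer libraries and the stricter threshold. Leaving out each library gave 224 to 296 genes, 209 to 267 rising, 14 to 29 falling, 60 to 104 in placebo-treated mice, 115 to 190 in anle138b-treated mice, 0 to 0 for the interaction and 8 to 44 for the ages. The falling genes were 14 without placebo-treated APPPS1ΔE9 replicate 3 or 4 or placebo-treated WT replicate 1, and 15 without placebo-treated APPPS1ΔE9 replicate 5 or anle138b-treated WT replicate 2. Same-numbered libraries correlated at a mean r of 0.119 in their deviations from the group means (over 0.1 in 16 of 30 pairs). Differently numbered libraries correlated at a mean r of -0.0223 (over 0.1 in 64 of 150 pairs). Replicate numbers are the order of the mouse numbers within a group, and the labels name no pairs. The correlations do not decide whether mice were paired. With the replicate block, 233 genes passed, 207 higher and 26 lower, with 120 in anle138b-treated mice. Each of 5 of the 22 libraries correlated best with its own number. Genes under 1 CPM rest on few counts, and lane cannot be told apart from genotype.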
